A study of Mus musculus with 8 samples.

Results

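White matter of the lumbar spinal cord was compared between mice with spinal muscular atrophy (SMA) and wild-type (WT) mice, with 2 libraries per genotype out of the 8 libraries of the series. The members are the 4 white matter libraries and, among the 23278 genes listed, the 12929 with at least 1 RPKM (a read count scaled by gene length and by sequencing depth) in at least 2 of these 4. A further 4793 genes were listed at 0 in all 4 libraries and 5556 lay above 0 but did not reach that level. Of the tested genes, 11211 reached 1 RPKM in every white matter library, 207 passed only through both SMA libraries and 59 only through both WT libraries, so members of those last 2 sets had to differ between the groups.

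The study profiled total RNA from ventral horn motor neurons and the glia-rich white matter around them at postnatal day 1, before symptoms, in FVB/N mice. Tissue was cut from hematoxylin-stained frozen sections with a laser, so captures were chosen by position and morphology and not by a marker. The SMA animals are homozygous for the human SMN2 gene and for SMNΔ7, a human SMN transgene without exon 7, and lack mouse Smn (SMN2+/+;SMNΔ7+/+;Smn-/-), whereas the WT animals are labelled only as WT. The labels name no animals, litters or pools and no age other than the day, so p-values measure the spread between libraries, which may in part be technical.

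SMN protein assembles the small nuclear ribonucleoproteins that splice messenger RNA, and its loss causes a disease that is best known for the death of motor neurons. White matter of the newborn cord holds axons, astrocytes, oligodendrocyte precursors and the first myelin-forming oligodendrocytes, with microglia, vessels and the meninges at the surface. Glia make large amounts of cholesterol for myelin membranes during this period.

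The white matter libraries were scaled by the authors to 86.9 and 96.7 M reads in WT and 96.8 and 102.8 M reads in SMA. Without Rn45s, the precursor of ribosomal RNA, 45 and 49.7 M reads were recovered on genes in WT and 68.2 and 64.5 M reads in SMA. Rn45s itself held 29.0 and 22.5% of the RPKM sum in WT and 19.4 and 20.8% in SMA. On the deposited scale the SMA values lay higher over most genes: 81.7% of the tested genes had a positive log2 difference and the median was 0.286. After each library was divided by its median ratio to the other libraries, the median was 0.000578 and 50.0% were positive. Levels are given as deposited unless called rescaled, and log2 differences, medians and counts of separated genes refer to the rescaled values unless the deposited scale is named. Differences are in log2(RPKM + 1), which understates the change of genes at low levels, with their standard error (SE).

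**Figure D1:**
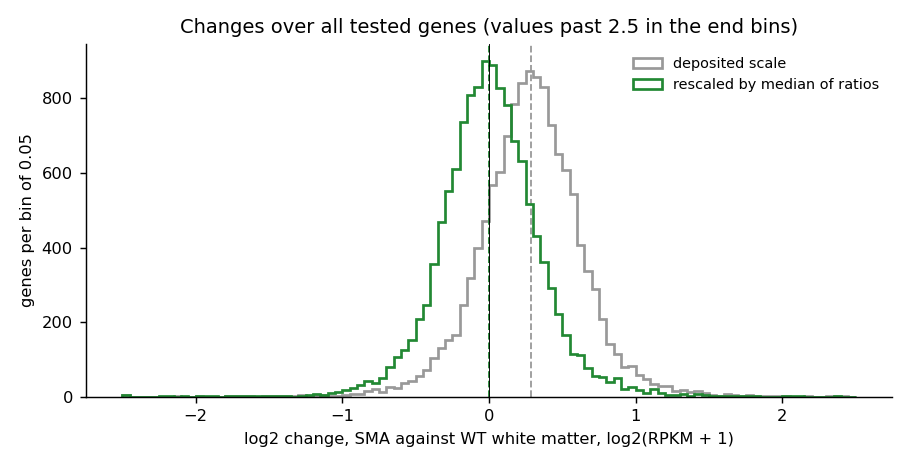
Histogram of the log2 difference of SMA against WT white matter over 12929 genes (x axis, log2(RPKM + 1) units; y axis, genes per bin) on the deposited scale (grey) and after rescaling (green), with dashed lines at the medians. The grey curve is shifted by its median of 0.286 and the green one is centred on 0.

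No gene passed the test. limma with Benjamini-Hochberg adjustment called 0 of 12929 genes (0%) on the deposited scale and 0 on the rescaled values, with smallest adjusted p of 0.142 and 0.0545. At an unadjusted p under 0.05 there were 883 genes on the deposited scale, 848 of them higher in SMA, and 341 on the rescaled values, 215 higher and 126 lower, where 646 would be expected by chance. A voom fit on the reads recovered from the RPKM steps called 1 gene on each scale, Ptgds. On simulated data of this size the test recovered 16.4% of genes with a log2 difference of 1, 88.1% with 2 and 100% with 4. An absent call thus says little about differences near 1. The changed genes, 200 per run, were drawn from those with a mean log2(RPKM + 1) over 2 in WT, and the noise was normal. With so many changed genes the adjustment is less strict than with few. In the data Smn1 and Ptgds, at rescaled log2 differences of -3.38 and 3.23, did not pass, so the simulated shares are not rates for the real data. Both SMA libraries lay above both WT libraries for 41.2% of genes and below for 3.51% on the deposited scale, and for 15.2% and 13.7% after rescaling. These shares are the background for every count below, and 15.2% above and 3.51% below kept that separation on both scales. Among the separated genes, 105 were higher and 65 lower by a rescaled log2 difference over 1, and 10 and 8 by over 2.

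The 2 genotypes did not form separate clusters. Across genes, which are not independent replicates, log2 values of the 2 WT libraries correlated with r = 0.927 and those of the 2 SMA libraries with r = 0.937, while pairs across genotypes reached 0.931 to 0.944. In a principal component analysis of the 4 libraries, WT and SMA were apart only on the third component, which held 27.9% of the variance, at -28.3 and -8.70 for WT and 16.5 and 20.5 for SMA.

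Smn1, the mouse gene removed in the model, was measured at 5.30 and 14.3 RPKM in WT, from 565 and 1700 reads, and at 0 in both SMA libraries. The groups do not overlap, although the WT libraries lie far apart. With 3 reads taken as the most that a count of 0 allows in a library, a limit for counting error alone, the WT mean was at least 400-fold higher and the lower WT library at least 216-fold higher. The limma adjusted p was 0.239 on the deposited scale and 0.197 after rescaling.

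The SMN complex and the Sm proteins that it loads onto spliceosomal RNAs were otherwise close to WT. Of 25 members tested, Smn1 included, 2 lay above and 4 below both WT libraries, near the background. The median was 0.027 beside 0.000578 over all genes. Smn1 is 1 of the 4 below and passed the filter only through the WT libraries, so it had to lie there. Apart from Smn1, Gemin7, a subunit of the complex, stood at 20.4 and 18.9 RPKM in WT and 14.1 and 13.9 in SMA (rescaled log2 -0.78, SE 0.48). Lsm10, a protein of the U7 particle that processes histone messages, stood at 11.4 and 8.68 RPKM against 5.33 and 6.28 (log2 -0.98, SE 0.46). The core protein gene Snrpd3 went the other way, at 6.44 and 6.80 RPKM against 11.9 and 14.6 (log2 0.59, SE 0.31). For these genes both SMA libraries were outside the WT pair on both scales, and each had an adjusted p of 0.9998 after rescaling.

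Ptgds, which encodes lipocalin-type prostaglandin D synthase, an enzyme made by the meninges and by oligodendrocytes, showed the smallest p. It was at 14.1 and 15.8 RPKM in WT and at 174 and 202 RPKM in SMA, from 989 and 1228 against 13533 and 16722 reads. The libraries of each genotype were close together and the groups far apart, with a mean 12.6-fold higher in SMA on the deposited scale and 9.98-fold after rescaling. The log2 difference was 3.56 (SE 0.43, adjusted p = 0.142) and 3.23 (SE 0.36, adjusted p = 0.0545). Ptgds passed the threshold under 5 of 14 alternatives on the deposited scale (adjusted p 0.000371 to 0.94) and 7 of 15 after rescaling (0.00269 to 0.937). Without WT replicate 2 the adjusted p were 0.94 and 0.937, the highest of these. In motor neurons Ptgds was at 6.54 and 6.28 RPKM in WT and 18.4 and 5.61 in SMA. These libraries share the estimate of spread in the main fit. The lowest adjusted p above, 0.000371 deposited and 0.00269 rescaled, were from limma on the 4 white matter libraries alone. The difference of the genotype effects between regions was -2.59 (SE 0.50), with an unadjusted p of 0.000453 and a limma adjusted p of 0.9997.

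**Figure D2:**
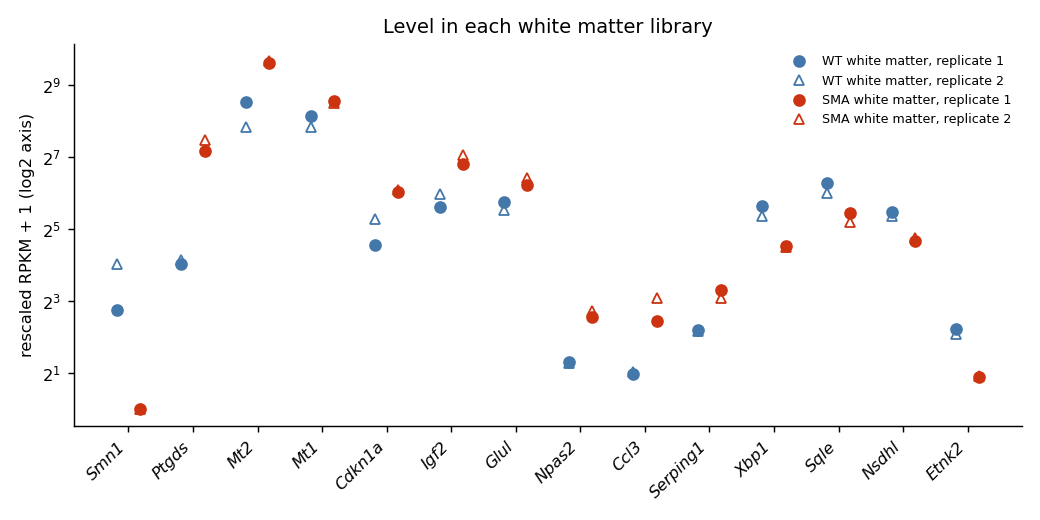
Rescaled RPKM plus 1 (y axis, log2 scale) of 14 genes in the 4 white matter libraries, WT in blue and SMA in red, replicate 1 filled and replicate 2 open. Ptgds and Npas2 show groups that lie far apart with close replicates, and the cholesterol genes Sqle and Nsdhl lie lower in both SMA libraries.

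Several other genes with small p were at low levels, and Saa1 and Mgp passed the filter only through both SMA libraries, so they had to differ. Both were at 0 RPKM in all 4 motor neuron libraries, which enter the same fit. Their SE and p therefore rest in part on libraries without spread. Saa1, an acute-phase apolipoprotein, was listed at 0 in both WT libraries and at 1.94 and 4.33 RPKM in SMA. Mgp, a matrix protein that inhibits calcification, was at 0.596 and 0.777 RPKM in WT and 5.49 and 3.44 in SMA (rescaled log2 1.44, SE 0.32). Npas2, a transcription factor of the circadian clock, was at 1.39 and 1.35 RPKM against 5.95 and 6.48 (log2 1.35, SE 0.32), with nearly equal replicates in each genotype. Etnk2, an ethanolamine kinase, lay lower, at 3.38 and 3.03 RPKM in WT and 1.06 and 1.03 in SMA (log2 -1.23, SE 0.39). In motor neurons Etnk2 stood at 2.85 and 3.06 RPKM in WT and 5.57 and 9.36 in SMA, and the interaction of 2.34 had an unadjusted p of 0.00173. Npas2, Mgp, Saa1 and Etnk2 each had an adjusted p of 0.9998 on the rescaled white matter values.

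More genes with small p were at low levels, and of these BC100530, LOC100302567 and Ckm also passed only through both SMA libraries. In motor neurons BC100530 was at 0 RPKM in all 4 libraries, and LOC100302567 at 0 and 0.137 in WT and 0 and 0 in SMA. Their p also rest in part on these libraries with little or no spread. BC100530, from a cluster of stefin protease inhibitor genes active in neutrophils, was at 0.731 and 0 RPKM in WT and 4.73 and 3.37 in SMA. LOC100302567 was at 0.122 and 0 RPKM against 1.87 and 5.28, and Ckm, the creatine kinase of muscle, at 0.724 and 0 against 3.25 and 13.8. The higher SMA value of Ckm is in SMA replicate 2, the library with the most skeletal muscle RNA. On the lower side, Tssk4, a kinase best known from testis, was at 1.28 and 1.28 RPKM in WT and 0 and 0.328 in SMA, and Ccdc123 at 7.93 and 6.67 against 4.01 and 3.24. BC030500 was at 1.96 and 3.84 RPKM against 0.638 and 0.878, and its interaction with region was 2.38 (unadjusted p = 0.00154, adjusted 0.9997). Tssk4 and BC030500 passed the filter only through both WT libraries, so they had to lie lower in SMA.

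The growth-arrest and metal-response genes Cdkn1a, Mt1 and Mt2 were higher in both SMA libraries. Cdkn1a, the cell cycle inhibitor p21 and a target of p53, was at 21.0 and 36.0 RPKM in WT and 78.8 and 77.2 in SMA, with log2 differences of 1.47 (SE 0.27, adjusted p = 0.539) deposited and 1.14 (SE 0.27, adjusted p = 0.9998) rescaled. The SMA replicates were nearly equal and lay above both WT values. Over 31 p53 targets the rescaled median was 0.128, with 3 above and 1 below both WT libraries. That median was 0.022 without WT replicate 1 and 0.231 without WT replicate 2. Psrc1, a spindle protein, was among the 3 at 4.22 and 0.832 RPKM against 12.7 and 6.40, and its replicates were far apart. Mdm2, the ligase that degrades p53, stood at 18.8 and 24.9 RPKM against 22.7 and 22.3, and Bax, a pore-forming apoptosis protein, at 36.2 and 30.8 against 34.9 and 39.3. The list thus held few separated genes besides Cdkn1a. In motor neurons Cdkn1a was at 59.98 and 58.4 RPKM in WT and 269 and 245 in SMA, and the interaction of 1.001 had an unadjusted p of 0.0276 (adjusted 0.9997).

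Mt2, a metallothionein that binds zinc and copper, was at 341 and 216 RPKM in WT and 963 and 922 in SMA. The rescaled log2 difference was 1.46 (SE 0.42) and the deposited one 1.79 (SE 0.35, adjusted p = 0.539). Mt1, its neighbour on chromosome 8, was at 262 and 215 RPKM against 454 and 412 (rescaled log2 0.53, SE 0.27). Neither pair overlapped between genotypes. Mt3, the brain form, was not separated, at 2.40 and 4.80 RPKM against 12.8 and 3.56. Over the 8 tested genes of zinc handling and metallothioneins 3 lay above and 3 below, with a median of -0.002. Of the zinc carriers, the exporter Slc30a1 lay at 5.50 and 6.43 RPKM in WT and 5.30 and 6.11 in SMA, below both WT libraries after rescaling, and the metal-sensing factor Mtf1 at 6.34 and 7.03 against 9.29 and 8.67.

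The windows around the starts of Mt1 and Mt2 are printed because these neighbours lay higher together. They run from 250 bases before to 50 after the start that RefSeq annotates on GRCm38.p6, at chr8:94178839-94179138 and chr8:94172368-94172667, both on the plus strand. Capitals mark matches to the metal response core, TGCACNC or TGCGCNC, on either strand without overlap.
Mt1: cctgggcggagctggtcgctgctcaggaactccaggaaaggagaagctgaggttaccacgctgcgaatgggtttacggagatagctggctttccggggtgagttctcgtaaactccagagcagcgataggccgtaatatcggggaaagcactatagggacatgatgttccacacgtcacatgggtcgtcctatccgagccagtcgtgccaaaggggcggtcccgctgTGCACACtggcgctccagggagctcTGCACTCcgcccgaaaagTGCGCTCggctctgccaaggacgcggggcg
Mt2: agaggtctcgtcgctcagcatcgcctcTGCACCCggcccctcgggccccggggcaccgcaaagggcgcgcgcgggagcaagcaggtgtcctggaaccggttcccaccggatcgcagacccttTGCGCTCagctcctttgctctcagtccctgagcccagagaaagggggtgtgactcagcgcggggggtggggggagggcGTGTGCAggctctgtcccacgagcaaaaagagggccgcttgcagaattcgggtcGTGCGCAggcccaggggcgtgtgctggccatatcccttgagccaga
The Mt1 window holds 3 matches and the Mt2 window 4. The windows of Slc30a1, Mt3 and Mtf1, whose values are given above, hold 2, 1 and 0. Among the 27025 genes with such a window, 28.2% held at least 1 match, 1.5% at least 3 and 0.333% at least 4. A match of letters is a description only. The annotated starts of Mt1 and Mt2 may lie upstream of the main ones, and other start sites of these genes were not examined.

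Most cholesterol synthesis genes had lower values in SMA white matter. Of the 23 tested members, 15 lay below both WT libraries after rescaling and 0 above, beside a background of 13.7% and 15.2%, and the median log2 difference was -0.523. On the deposited scale 8 lay below and 2 above, beside 3.51% and 41.2%, with a median of -0.241 where the median of all genes was 0.286. The summed rescaled level of the list was 660 and 537 RPKM in WT and 462 and 396 in SMA. On the deposited scale the sums of 614 and 507 in WT and 564 and 453 in SMA overlapped. None of the genes passed limma, whose smallest unadjusted p in the list was 0.00496.

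Sqle, which oxidises squalene in the first oxygen-dependent step, was at 70.8 and 59.96 RPKM in WT against 51.8 and 41.2 (rescaled -0.82, SE 0.23). Nsdhl, a dehydrogenase that helps to remove methyl groups from the sterol, was at 40.2 and 38.2 RPKM against 29.8 and 29.97 (rescaled -0.70, SE 0.22). For Sqle and Nsdhl, both SMA libraries lay below both WT libraries on either scale.

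Insig1, the sterol-regulated membrane protein that holds back the transcription factor SREBP, stood at 36.3 and 34.9 RPKM in WT and 23.5 and 30.8 in SMA (rescaled -0.71, SE 0.33). Dhcr7, the enzyme of the last step in one branch, stood at 34.5 and 22.4 RPKM against 26.0 and 15.5, which overlap on the deposited scale and are separate after rescaling. Idi1, Lss, Sc4mol and Stard4 also lay lower on both scales, with rescaled log2 differences of -0.76, -0.49, -0.61 and -0.52. Genes without such a difference were Acat2, a thiolase, at 0.02, and Srebf2, which encodes the pathway's transcription factor SREBP2, at -0.20. Hmgcs1 was listed at 0 in every white matter library.

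**Figure D3:**
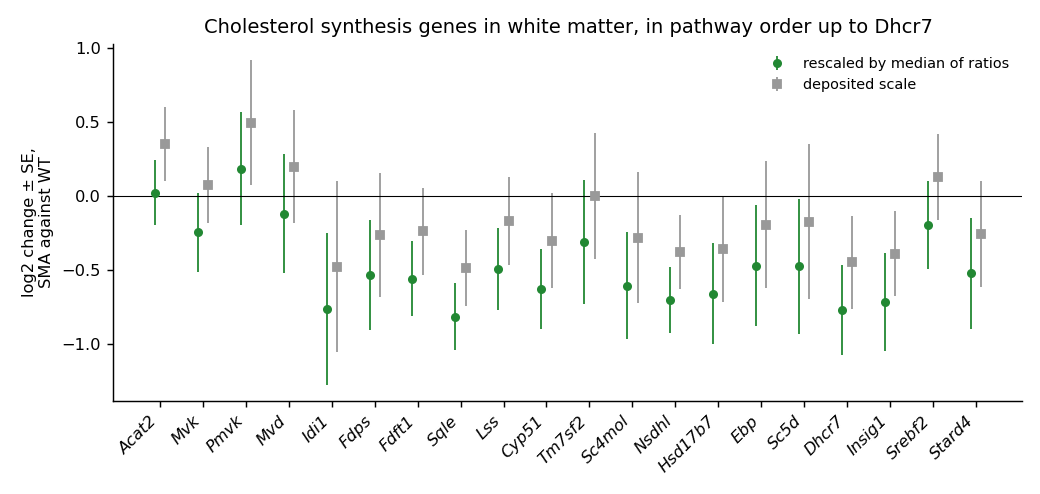
Log2 difference of SMA against WT white matter (y axis, with bars of 1 SE) for 20 of the tested cholesterol genes (x axis, in the order of the pathway up to Dhcr7, then regulators) after rescaling (green) and on the deposited scale (grey). After rescaling 18 of the 20 genes drawn lie below 0, and the grey points lie higher by the overall shift.

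The median of the cholesterol list stayed below 0 under all 15 alternatives, between -0.586 and -0.355, and was -0.428 without SMA replicate 2 and -0.564 without SMA replicate 1. Genes of fatty acid and glycosphingolipid synthesis did not share this: of 25 members 0 lay above and 3 below both WT libraries, and the median was -0.075. Fasn, the fatty acid synthase, was at 50.6 and 41.7 RPKM in WT and 66.8 and 40.6 in SMA. In motor neurons Sqle stood at 118 and 126 RPKM in WT and 139 and 93.0 in SMA, and Nsdhl at 54.7 and 44.3 against 62.6 and 45.6. The interactions were 0.76 (unadjusted p = 0.0400) and 0.86 (unadjusted p = 0.01998), neither past the adjusted threshold (0.9997 for both).

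Chaperone and stress genes of the endoplasmic reticulum included several lower members. Of 27 tested, 3 lay above and 8 below both WT libraries after rescaling, 5 of them below also on the deposited scale, with a median of -0.083. Xbp1, a transcription factor of the unfolded protein response, was at 45.2 and 37.7 RPKM in WT and 27.2 and 24.9 in SMA (rescaled -0.97, SE 0.27). Sdf2l1, a chaperone cofactor, was at 12.1 and 10.5 RPKM against 8.76 and 3.96, and Herpud1, a factor in protein degradation at that membrane, at 8.44 and 11.5 against 7.62 and 7.64. Hspa5, the main chaperone there, stood at 72.0 and 65.9 RPKM against 65.7 and 61.8. Members of the amino acid response went both ways after rescaling. Atf4, its transcription factor, lay above both WT libraries, at 34.95 and 34.03 RPKM in WT and 48.8 and 47.5 in SMA (rescaled 0.14, SE 0.35). Psat1, an enzyme of serine synthesis, lay below them after rescaling, with rescaled levels of 171 and 176 RPKM against 158 and 169.5 (log2 -0.08, SE 0.21), and above them on the deposited scale. The median of the whole list was -0.179 without WT replicate 1, -0.0389 without WT replicate 2, -0.152 without SMA replicate 1 and -0.0333 without SMA replicate 2.

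Myelin and oligodendrocyte genes varied between the replicates of each genotype more than between genotypes. Mbp, a major protein of compact myelin, was at 1960 and 840 RPKM in WT and 2506 and 1222 in SMA. Mag, an adhesion protein of the innermost myelin layer, followed the same order at 188 and 64.2 against 247 and 81.5 RPKM. In each genotype replicate 1 was high and replicate 2 low, and the groups overlapped. Over the 32 tested myelin genes 3 lay above and 4 below both WT libraries, with a rescaled median of -0.141. That median changed sign, to 0.332 without WT replicate 1 and 0.286 without SMA replicate 2. The defining markers of the captured tissue were thus present in all 4 libraries, and the list gave no stable direction.

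Within it, Ptgds stood apart as described above, and Sox10, a transcription factor of the lineage, was at 56.5 and 41.0 RPKM in WT and 107 and 71.8 in SMA (rescaled 0.52, SE 0.29). Oligodendrocyte precursor and transition genes were close to WT, with 2 of 26 above and 2 below and a median of -0.013. Pdgfra, the growth factor receptor of precursors, was at 23.9 and 23.3 RPKM against 39.4 and 33.3 (rescaled 0.27, SE 0.27), and Olig2, a lineage factor, at 61.3 and 48.8 against 83.1 and 56.5. Gpr17, a receptor of newly committed cells, was at 106 and 91.3 RPKM against 142 and 118, separate on the deposited scale only.

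Astrocyte genes had a rescaled median of 0.117, with 10 of 29 above both WT libraries and 1 below, beside 15.2% and 13.7%. The median was -0.041 without SMA replicate 1 and 0.209 without WT replicate 2. Glul, glutamine synthetase, which clears glutamate and ammonia, had the smallest p of the list, at 49.3 and 42.4 RPKM in WT and 90.1 and 96.9 in SMA (rescaled 0.68, SE 0.27). Ndrg2 and Sparcl1, a secreted matrix protein, were at 214 and 252 against 406 and 376 RPKM and at 539 and 636 against 1060 and 912. Gfap, the astrocyte filament protein, overlapped between genotypes at 187 and 147 against 238 and 179 RPKM. So did Aqp4, the water channel of astrocyte endfeet, at 191 and 336 against 308 and 257 RPKM.

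Among 19 genes of reactive astrocytes and glial stress, 9 lay above and 2 below both WT libraries, with a median of 0.289 that ranged from 0.176, without WT replicate 1, to 0.29 over the alternatives. S1pr3, 1 of the 9, passed the filter only through the SMA libraries. Mt1 and Mt2 belong to this list. Timp1, an inhibitor of matrix proteases, was at 2.02 and 3.58 RPKM in WT and 10.2 and 9.35 in SMA (rescaled 1.25, SE 0.71). Serpina3n, a protease inhibitor of reactive astrocytes, was at 28.1 and 40.7 RPKM against 53.2 and 62.8 (rescaled 0.43, SE 0.29). Lcn2, an iron-binding lipocalin, overlapped between genotypes at 3.18 and 0.412 RPKM in WT and 1.42 and 0.855 in SMA. Cd44, a receptor for hyaluronan, stood at 25.2 and 21.8 RPKM against 28.1 and 26.1, above both WT libraries on the deposited scale and below both after rescaling (log2 -0.12, SE 0.45).

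Microglia genes had a median of 0.087, with 3 of 27 above and 2 below both WT libraries, and complement genes a median of -0.007, with 4 of 14 above and 4 below. The C1q subunits, which start the classical complement cascade, gave C1qa at 16.8 and 15.9 RPKM in WT and 15.7 and 16.7 in SMA, C1qb at 53.4 and 51.4 against 74.5 and 83.7, and C1qc at 57.0 and 67.6 against 78.1 and 83.7. After rescaling the log2 differences were -0.33 (SE 0.41), 0.25 (SE 0.40) and 0.04 (SE 0.25). The effect of genotype in motor neurons minus that in white matter was 1.84, 1.75 and 1.48 for C1qa, C1qb and C1qc, with unadjusted p of 0.0103, 0.0120 and 0.00173. None passed the adjusted threshold (0.9997 for each).

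Serping1, the inhibitor of C1, was at 3.32 and 3.26 RPKM in WT and 10.9 and 8.49 in SMA (rescaled 1.02, SE 0.37), and had the smallest p of the complement list. Itgam, a complement receptor subunit on microglia, was lower on both scales at 10.4 and 9.71 against 8.02 and 8.29 RPKM. Of 17 tested genes of phagocytic and inflammatory microglia, 8 lay above and 2 below, with a median of 0.3. It was 0.176 without WT replicate 2, 0.195 without SMA replicate 1, 0.178 with a pseudocount of 5 RPKM and 0.00649 with no filter on low values, and 1 of the 8, Ccl3, passed the filter only through the SMA libraries. Ccl3, a chemokine, was at 0.889 and 0.969 RPKM against 5.48 and 8.49, and Igf1, a growth factor also made by microglia near myelinating axons, at 4.34 and 3.19 against 7.46 and 10.7 (rescaled 0.78, SE 0.31). Cd68, a lysosomal membrane protein of phagocytes, was at 4.78 and 7.81 RPKM against 13.3 and 14.2. Lyz2, a lysozyme, was not higher, at 22.1 and 16.0 RPKM against 7.13 and 19.7, and Gpnmb, Ccl4 and Il1b were listed at 0 in all 4 libraries.

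Genes of vessels and meninges lay higher in SMA white matter. Of 22 tested fibroblast or meninges genes 14 lay above both WT libraries and 0 below, of 23 endothelial genes 13 and 0, and of 13 pericyte genes 7 and 0 after rescaling, beside 15.2% and 13.7%. On the deposited scale 19, 18 and 11 of these genes lay above, beside 41.2%. Aldh1a2 and Osr1 among the meninges genes and Tie1 among the endothelial genes passed the filter only through the SMA libraries and had to lie above. The rescaled medians were 0.618, 0.464 and 0.514. They stayed above 0 under all 15 alternatives, at 0.315 to 1.02, 0.267 to 0.684 and 0.328 to 0.834. No member passed limma, and the members named in the next paragraphs had an adjusted p of 0.9998 after rescaling. In bulk tissue more cells of a type and more RNA per cell cannot be told apart.

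Col1a1 and Col3a1, fibrillar collagens, were at 16.4 and 19.0 against 59.7 and 34.0 RPKM and at 5.76 and 10.2 against 30.6 and 16.9. Their rescaled log2 differences were 0.98 (SE 0.35) and 1.14 (SE 0.43). Igf2, a growth factor strongly made by the meninges, was at 44.5 and 58.3 RPKM in WT and 136 and 152 in SMA (rescaled 1.14, SE 0.37). Fmod, a small proteoglycan, was at 1.88 and 2.39 RPKM against 8.19 and 8.87 (rescaled 1.33, SE 0.38). Slc6a13 and Slc13a4, carriers for GABA and for sulfate that mark the meninges, were at 1.65 and 2.37 against 6.42 and 5.45 RPKM and at 1.16 and 0.884 against 6.80 and 2.60. Dcn, a collagen-binding proteoglycan, overlapped after rescaling at 7.66 and 15.1 against 38.1 and 16.7 RPKM.

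Several of the endothelial genes were at low levels. Cldn5, the main tight junction protein of brain vessels, was at 5.38 and 4.13 RPKM in WT and 12.96 and 8.55 in SMA (rescaled 0.71, SE 0.47). Vwf, the clotting factor carrier, was at 0.608 and 1.13 RPKM against 3.52 and 3.003, and Tie1, a vascular receptor, at 0.439 and 0.418 against 2.14 and 1.90. Slc2a1, the glucose carrier of the blood-brain barrier, was at 28.4 and 26.8 RPKM against 50.0 and 43.8. Esam and Sox18 did not follow, with rescaled log2 differences of -0.19 and -0.16. Among pericyte genes, Pdgfrb, the receptor that recruits pericytes, was at 2.01 and 1.68 RPKM against 4.90 and 4.10, and Higd1b at 1.00 and 0.465 against 4.60 and 2.57.

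Basement membrane and matrix genes had a median of 0.282, with 13 of 27 above both WT libraries and 1 below. It was 0.173 without SMA replicate 1, 0.492 without WT replicate 2 and 0.573 without SMA replicate 2. Col4a1 and Col4a2, the chains of the vascular collagen network, were at 2.52 and 3.04 against 11 and 7.15 RPKM and at 2.67 and 3.32 against 10.04 and 6.36. Lama1, a laminin chain, stood at 5.93 and 7.41 against 6.35 and 6.93 RPKM, and Agrn at 34.6 and 28.5 against 38.5 and 32.9.

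The higher list medians were seen in both SMA libraries and were larger in replicate 1. Relative to the WT mean, the median over the fibroblast or meninges genes was 0.866 in SMA replicate 1 and 0.538 in replicate 2, with -0.147 and 0.147 in WT. For endothelium it was 0.684 and 0.367, with 0.049 and -0.049 in WT. The summed deposited levels were 134 and 123 RPKM in WT and 261 and 211 in SMA for endothelium and 50.7 and 46.7 against 103 and 75.8 for pericytes.

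**Figure D4:**
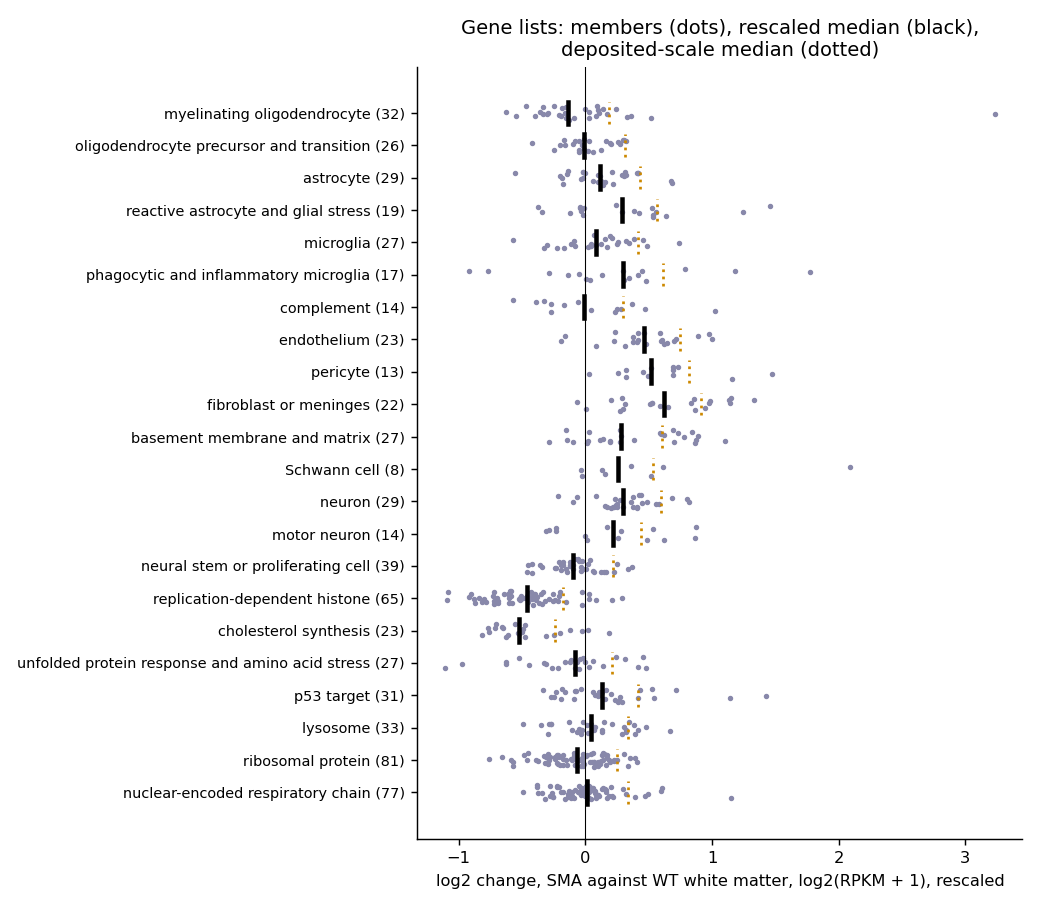
Rescaled log2 difference of SMA against WT white matter (x axis) for the tested members of 22 gene lists (dots; number of genes in parentheses), with the rescaled median (black bar) and the deposited-scale median (dotted). Red blood cell, skeletal muscle, neutrophil and Dlk1-Dio3 genes are among the lists not drawn. Of the lists drawn, fibroblast or meninges, pericyte and endothelium have the highest rescaled medians (0.618, 0.514 and 0.464), and cholesterol synthesis and histone the lowest (-0.523 and -0.461).

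Markers of tissue next to the white matter also differed between libraries. Of 8 tested Schwann cell genes 3 lay above both WT libraries and 0 below, with a median of 0.254 that was 0.165 without SMA replicate 1 and 0.489 without WT replicate 1. Prx, Egr2, Pmp2 and Cdh19 were under the filter. Skeletal muscle genes, a list chosen after values were seen, summed to 38.3 and 14.5 RPKM in WT, 48.4 in SMA replicate 1 and 398 in SMA replicate 2. Acta1 and Mylpf, muscle actin and a myosin light chain, were at 15.3 and 1.76 against 11.8 and 148 RPKM and at 4.33 and 0.288 against 6.91 and 121. Des, a pericyte and muscle filament gene, followed with 1.19 and 0.178 against 1.92 and 8.14 RPKM.

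Red blood cell genes were also high in SMA replicate 2. Their summed level was 1571 and 665 RPKM in WT and 1101 and 3973 in SMA, with Hba-a1, a globin gene, at 619 and 238 against 443 and 1538 RPKM. The median of 0.466 became -0.319 without SMA replicate 2, so that library decides it. Neutrophil genes, a list also chosen after values were seen, had a median of 0.936 over 9 tested members, 4 of them above both WT libraries. Of these 4, 3 (BC100530, Stfa3 and Mmp9) passed the filter only through the SMA libraries, and the median was 0.381 without WT replicate 2 and 1.49 without WT replicate 1. Their summed level was 22.6 and 1.31 RPKM in WT and 47.0 and 28.4 in SMA. The vascular and meningeal medians without SMA replicate 2 were 0.684 for endothelium, 0.715 for pericytes and 0.866 for fibroblasts or meninges. Without SMA replicate 1 they were 0.367, 0.333 and 0.538. Without WT replicate 2 the last was 1.02. The part that captured muscle, nerve root, blood or meninges has in the levels of single genes such as Ptgds, Igf2 and H19 was not tested. H19, an imprinted RNA abundant in mesenchyme and muscle, was at 40.6 and 24.7 RPKM in WT and 83.0 and 143 in SMA (rescaled 1.42, SE 0.40).

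**Figure D5:**
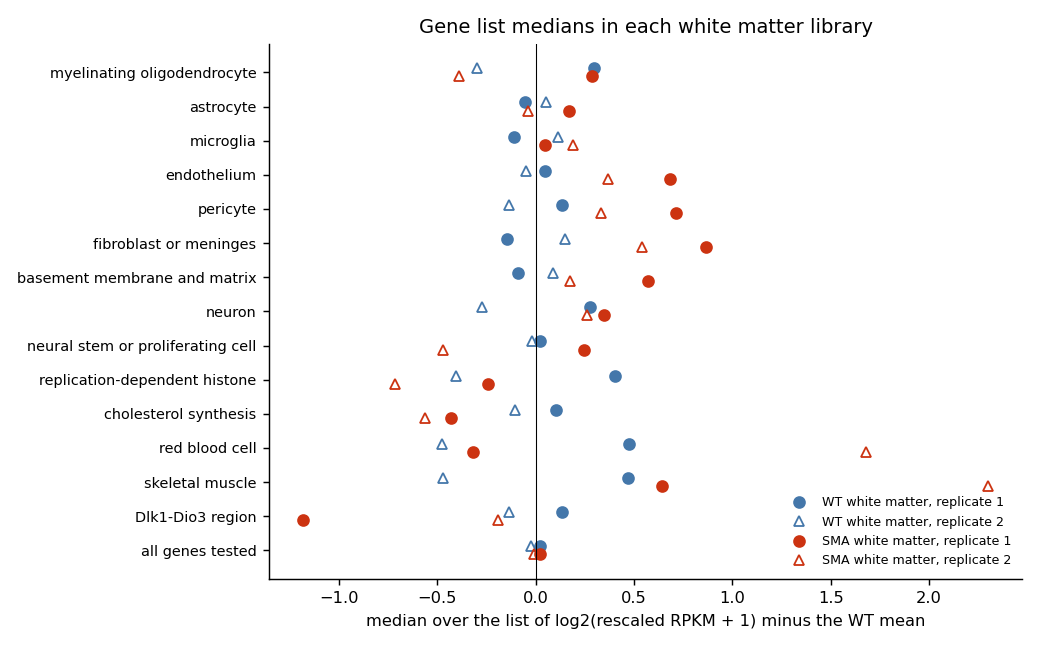
Median over each gene list of log2(rescaled RPKM + 1) minus the WT mean (x axis) in the 4 white matter libraries, WT blue and SMA red, replicate 1 filled and replicate 2 open. SMA replicate 2 stands apart for red blood cell and skeletal muscle genes (1.68 and 2.30), SMA replicate 1 for the Dlk1-Dio3 region (-1.18), and both SMA libraries lie above WT for endothelium, pericyte and fibroblast or meninges genes.

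Of 29 tested neuronal genes 8 lay above both WT libraries and 0 below, with a rescaled median of 0.3 that was 0.0856 without WT replicate 2 and 0.629 without WT replicate 1. Ina, an intermediate filament of axons, was at 8.80 and 6.08 RPKM in WT and 20.5 and 14.5 in SMA (rescaled 0.82, SE 0.30), and Stmn2, a growth cone protein, at 29.3 and 26.3 against 43.5 and 64.2 (0.58, SE 0.26). Motor neuron genes had a median of 0.215 over 14 tested members, with 4 above and 1 below, and 2 of the 4 (Mmp9 and Aldh1a2) passed the filter only through the SMA libraries. The defining markers Chat, Isl1, Mnx1 and Lhx3 were under the filter in white matter, and the summed level of the list was 32.1 and 23.9 RPKM in WT and 59.9 and 33.6 in SMA.

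Replication-dependent histone genes lay lower in SMA after rescaling. Of 65 tested, 20 lay below both WT libraries and 0 above, beside a background of 13.7% and 15.2%. On the deposited scale 3 lay below, near the background of 3.51%, and 0 above, beside 41.2%. The medians were -0.461 rescaled and -0.180 deposited. Hist1h4d, an H4 gene at the highest level, was at 759 and 411 RPKM in WT and 506 and 430 in SMA, and Hist2h2ac, an H2A gene, at 43.9 and 31.4 against 22.3 and 20.4. The histone list sum differed between the WT replicates (3891 and 2291 RPKM) by more than between the genotypes (3173 and 2187 in SMA), and the median was -0.126 without WT replicate 1 and -0.826 without WT replicate 2. Reads of near-identical histone copies cannot be assigned with certainty. Cell division genes had a median of -0.096, with 1 of 39 above and 5 below, and 0.247 without SMA replicate 2. Mki67, a marker of cycling cells, was at 5.22 and 4.55 RPKM against 11.7 and 5.45, and Top2a, a topoisomerase of dividing cells, at 13.4 and 20.04 against 30.6 and 11.99.

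Other lists had medians near 0 or a sign that rested on single libraries. Ribosomal protein genes had a median of -0.064 with 4 of 81 above and 7 below, nuclear-encoded respiratory chain genes 0.015 with 6 of 77 above and 6 below, and hypoxia and glycolysis genes 0.093 with 6 of 28 above and 4 below. Immediate early genes gave 0.009 with 2 of 18 above, and 1 of these 2, Klf4, passed the filter only through the SMA libraries. Interferon and MHC class I genes gave 0.101 with 2 of 21 above and 5 below. Lysosome genes had a median of 0.042 with 11 of 33 above and 4 below, among them Ctsd, a lysosomal protease, at 113 and 104 RPKM in WT and 196 and 186 in SMA, and Grn, progranulin, at 49.2 and 51.2 against 87.5 and 79.2. Axon-glia adhesion genes gave 0.083 with 3 of 21 above and 1 below. Growth factor and Wnt, BMP and Notch genes gave 0.163 with 13 of 37 above and 7 below, and included Bmp7, a secreted growth factor, at 6.26 and 7.07 RPKM against 16.9 and 13.2 and Lef1, a Wnt effector, at 1.68 and 0.366 against 5.01 and 3.23. The sign of the median changed when 1 library was left out for the ribosomal protein, respiratory chain, hypoxia, immediate early, interferon, lysosome, axon-glia and growth factor lists, and likewise for the fatty acid, oligodendrocyte precursor, microglia, complement, SMN complex, motor neuron and microRNA lists. Only 3 ependymal and ciliary genes passed the filter, with a median of 0.058.

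Small RNA genes were measured from fragments of sheared double-stranded cDNA, so their values can hold reads of host transcripts, and mature microRNAs were not measured as such. Of 165 tested microRNA genes 22 lay above and 35 below both WT libraries, with a median of -0.146, and of 78 small nucleolar and Cajal body RNA genes 5 and 17, with a median of -0.186 that was -0.542 without SMA replicate 2 and -0.0946 without SMA replicate 1. Of the microRNA genes, 5 passed the filter only through the SMA libraries and 12 only through the WT libraries. Of the small nucleolar and Cajal body RNA genes, 1 passed only through the SMA libraries and 3 only through the WT libraries. All of these had to differ on the deposited scale. Genes of the imprinted Dlk1-Dio3 region on chromosome 12, a list chosen after values were seen, had a median of -0.628 over 24 tested members, 2 above and 7 below on both scales. That lower level was mostly in 1 library: the list median relative to the WT mean was -1.18 in SMA replicate 1 and -0.192 in SMA replicate 2. In this list 3 members passed the filter only through the WT libraries and 1 only through the SMA libraries, so these had to differ on the deposited scale. Mirg, a host RNA of the region, was at 1.88 and 1.78 RPKM in WT and 0.143 and 0.487 in SMA (rescaled -1.23, SE 0.36), from 212 and 224 against 18 and 65 reads. Mirg passed the filter only through the WT libraries, so it had to lie lower in SMA. Rian, another long RNA there, was at 13.5 and 15.1 against 13.3 and 12.8 RPKM, and Meg3 overlapped at 5.58 and 1.77 against 2.11 and 3.47.

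The mature microRNAs of 3 genes of this region are printed because their genes did not overlap between genotypes, 1 higher and 2 lower in SMA; they were chosen after their values were seen. They are from RefSeq on GRCm38.p6, with the seed (bases 2 to 8) in capitals.
miR-453: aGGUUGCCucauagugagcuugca
miR-377-5p: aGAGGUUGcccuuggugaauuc
miR-377-3p: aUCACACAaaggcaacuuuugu
miR-154-5p: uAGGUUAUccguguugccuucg
miR-154-3p: aAUCAUACacgguugaccuauu
No seed is shared among the 5. Mir453, at chr12:109735669-109735692 for its mature form, was at 0.281 and 0.126 RPKM in WT (2 reads and 1 read) and 5.67 and 4.51 in SMA (45 and 38 reads), with a rescaled log2 difference of 2.12 (SE 0.33, adjusted p = 0.348). In motor neurons Mir453 was at 20.6 and 23.4 RPKM in WT and 6.57 and 7.55 in SMA, the opposite order, and its interaction of -3.59 had the smallest p of that test (limma adjusted p = 0.231). Mir377 was at 22.5 and 7.15 RPKM in WT (133 and 47 reads) and 0 and 2.57 in SMA (0 and 18 reads), with a log2 difference of -3.03 (SE 0.78, adjusted p = 0.9998). Mir154 was at 1.05 and 3.76 RPKM in WT (6 and 24 reads) and listed at 0 in both SMA libraries. The WT and SMA pairs did not overlap for any of these, and the numbers of reads were small. Mir453 passed the filter only through the SMA libraries and Mir154 only through the WT libraries, so neither could overlap on the deposited scale.

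Across regions, the test of whether genotype acted differently in motor neurons than in white matter called 0 of 12929 genes (smallest limma adjusted p = 0.231, that of Mir453, with 351 genes at an unadjusted p under 0.05). The same genes tested between genotypes in motor neurons gave 0 calls and 580 at an unadjusted p under 0.05. The differences between regions named above for Ptgds, Etnk2, Cdkn1a, Sqle, Nsdhl and C1q are therefore values that did not pass the adjusted threshold.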

How the data were processed

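RNA-seq of total RNA from laser-captured lumbar tissue was analysed for 4 white matter libraries, with 4 motor neuron libraries in the same model. Each deposited file holds 1 RPKM value per gene symbol, computed by the authors. The submitters' processing notes name the tools DESeq, TopHat and bedtools and the genome build mm9, without roles. Per the labels' protocols, cDNA was made with the NuGEN Ovation system and size-selected. For the versions, the annotation, the counting rule and the strand nothing is stated (not given in the sources used here), so overlapping or near-identical genes are uncertain.

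Genes with at least 1 RPKM in at least 2 of the 4 white matter libraries were tested on log2(RPKM + 1) in limma 3.58.1 (R 4.3.3), as 4 group means over 8 libraries with eBayes and trend, two-sided, Benjamini-Hochberg threshold 0.05. This was done on the deposited RPKM and after division by median-of-ratios factors (0.930, 0.943, 1.22 and 1.14 for the white matter libraries in the order WT and SMA). Same-numbered replicates did not pair: their deviations from the group means correlated with r = 0.0331 across genes, which are not independent. Reads were recovered from the RPKM steps for 99.99% of 17431 genes, within 0.02 of a read. With Rn45s they exceed the total the authors scaled to in some libraries, so what that total counted is unknown. On simulated data the recovery had every read right for 98.6% of 1098 genes. False calls made up 5.03% of the limma calls on simulated data (5 runs, 200 changed genes each).

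The comparison, its members and the gene lists were chosen with earlier results of these data known, and the skeletal muscle, neutrophil and Dlk1-Dio3 lists after values were seen. Named genes were taken from the 8 with the smallest rescaled p in each direction among genes whose groups did not overlap on both scales (small RNA and unnamed clone genes excluded), from the 3 of highest level and 3 of smallest p in each list, and Smn1. The 10 genes of highest level were also in the rule. Others were named after their values were seen. Some genes that the rule names are not reported here. Alternatives were another normalization, pseudocount, filter, fit, replicate block and leaving out each library, and, added later, limma-voom on recovered reads. Python 3.11.15, numpy 2.4.6, pandas 2.3.3 and matplotlib 3.10.9 were used for reading, recovery and figures.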

Additional observations from a re-analysis of the deposited data

How the results depend on the processing

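The count of called genes, 0 as reported on both scales, became 1 (Ptgds) on the deposited scale with quantile normalization, a pseudocount of 5 RPKM, a fit of the 4 white matter libraries alone or limma-voom on recovered reads. After rescaling it became 1 under the same settings and with at least 1 RPKM required in all 4 libraries, and 3 (Mir453, Ptgds and Smn1) with a pseudocount of 0.1 RPKM. Ptgds then had log2 differences of 3.41, 3.27, 3.56 and 3.65 on the deposited scale and, after rescaling, 3.41 (quantile), 3.30 (pseudocount 0.1), 2.96 (pseudocount 5), 3.23 (stricter filter), 3.23 (white matter alone) and 3.31 (voom). Smn1 was at -6.56 with a pseudocount of 0.1 RPKM (limma adjusted p = 0.0483). Leaving out any 1 of the 4 white matter libraries gave 0 calls on both scales and in the interaction. The cause of the calls gained was not tested, and no called value changed sign under the alternatives run.

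With a replicate block, whose numbers do not pair these samples, the fit of 8 libraries called 0 genes (smallest adjusted p 0.42 and 0.207) and the fit of the 4 white matter libraries 1, Ptgds, at a log2 difference of 3.56 deposited and 3.23 rescaled (limma adjusted p = 0.000594 and 0.021). With 2 libraries per group precision is limited by the spread between them.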
